A study of Mus musculus with 24 samples.

Results

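The 10 genes described here were followed through the 24 libraries: 6 constant genes of immunoglobulins (Igha, Ighm, Ighg1, Ighg2b, Igkc and Iglc1) and 4 genes used by plasma cells (Jchain, Mzb1, Tnfrsf17 and Derl3). The 10 were a given list of names, matched to 10 of the 27179 gene identifiers of the count table. An antibody is built of heavy and light chains, and the constant gene joined to the heavy chain's variable part sets the class: Ighm gives IgM, Igha gives IgA, and Ighg1 and Ighg2b give IgG classes. Igkc and Iglc1 encode the constant parts of kappa and lambda light chains. Plasma cells secrete these chains in large amounts, and those of the intestinal lamina propria mostly make IgA that is joined into dimers by the J chain and carried across the epithelium.

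The libraries came from colonic lamina propria of Nmur1 iCre-eGFP mice, in which green fluorescence reports Nmur1, which encodes a receptor that neuromedin U (NMU), a neuropeptide, activates. All animals had drunk 3% dextran sulfate sodium (DSS), which damages the colon lining, for 5 days and plain water for the next 3 days. They received NMU (mice 1 to 4) or phosphate-buffered saline, PBS (mice 5 to 8), into the peritoneum on alternate days. Each mouse gave 3 sorted populations with n = 4 libraries per population and treatment: eGFP+ group 2 innate lymphoid cells (ILC2; CD45+, lineage-negative, CD90.2+, CD127+, KLRG1+), eGFP+ CD4 T cells (NMUR1+) and eGFP- CD4 T cells (NMUR1-; both CD45+ CD3+ CD5+ CD4+). No animals without DSS were among the groups, no source used here gives the age and sex of the mice or the antibodies of the lineage mixture, and the design text counts 3 mice per treatment where the sample labels name 4.

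Total counts ran from 8485266 to 17854961 per library. A T cell marker list of 7 genes summed to 309 to 694 CPM (counts scaled to library size) in ILC2 libraries and to 4377 to 6442 CPM in CD4 libraries. An ILC2 list of 8 genes summed to 10478 to 13252 CPM in ILC2, to 2661 to 4714 CPM in the NMUR1+ and to 995 to 1762 CPM in the NMUR1- libraries. Both lists thus set ILC2 apart from CD4 libraries. Nmur1, whose reporter separates the CD4 populations, is not given on its own. The 10 genes together took 0.0204 to 0.571% of all counts in ILC2 of NMU mice and 0.502 to 5.74% in ILC2 of PBS mice. Their share was 0.545 to 22.03% in NMUR1+ cells of NMU mice and 1.63 to 19.4% in those of PBS mice. In NMUR1- cells it was 0.243 to 4.08% with NMU and 0.115 to 2.92% with PBS. In such bulk RNA, fewer cells of a type and less RNA per cell cannot be told apart.

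The constant genes Igha (gene 238447), Ighm, Ighg1 and Ighg2b lie in the heavy chain cluster of GRCm38 chromosome 12. Igha spans 113256204 to 113260236 there. Igkc (gene 16071) lies on chromosome 6 at 70726435 to 70726754, and Iglc1 (gene 110785) on chromosome 16 at 19061752 to 19062071. The constant regions follow V, D and J segments in the rearranged gene and have no promoter window of their own in the table used. Jchain and Derl3 are shown by sequence, the 250 bases before the start site in RefSeq GRCm38.p6. The table held a window for 3 of the 10 genes, of which these 2 are printed. Both varied together with Igha over the libraries, which was not what set them apart from the gene left out.

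Jchain, chr5:88527898-88528147, minus strand: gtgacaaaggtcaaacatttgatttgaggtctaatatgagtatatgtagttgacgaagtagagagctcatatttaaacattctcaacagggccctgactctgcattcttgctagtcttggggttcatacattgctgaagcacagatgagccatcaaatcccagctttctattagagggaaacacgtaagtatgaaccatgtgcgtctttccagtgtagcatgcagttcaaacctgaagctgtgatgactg
Derl3, chr10:75893148-75893397, plus strand: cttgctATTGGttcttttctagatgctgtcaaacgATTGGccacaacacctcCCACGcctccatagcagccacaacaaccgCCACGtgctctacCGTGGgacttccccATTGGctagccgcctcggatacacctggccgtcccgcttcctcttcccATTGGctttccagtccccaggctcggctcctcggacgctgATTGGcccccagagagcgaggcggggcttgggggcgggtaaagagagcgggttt

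The windows run 5′ to 3′ on the gene's strand, and capitals mark motif matches on either strand. Jchain (gene 16069) encodes the joining chain of IgA dimers and IgM pentamers, and Derl3 (gene 70377) a membrane protein that helps draw misfolded proteins out of the endoplasmic reticulum (ER). The 4 motifs searched on both strands were the octamer ATTTGCAT of immunoglobulin promoters, GACGTG and CCACG, letters of sites for factors of the unfolded protein response, and CCAAT. They occurred in 1.6%, 5.2%, 28.3% and 33.8% of the 32851 windows of the same length. The Derl3 window held 3 matches of CCACG (read as CGTGG on the reverse strand) and 5 of CCAAT (read as ATTGG on the reverse strand), and none of the others. On the reverse strand, 156 to 138 bases before the start, CCAAT was followed by CCACG at a distance of 9 bases, the arrangement known as the ER stress response element, which 0.113% of all windows held (37 windows). The Jchain window held none of the 4 motifs, which says only that these letters are not in it.

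**Figure D1:**
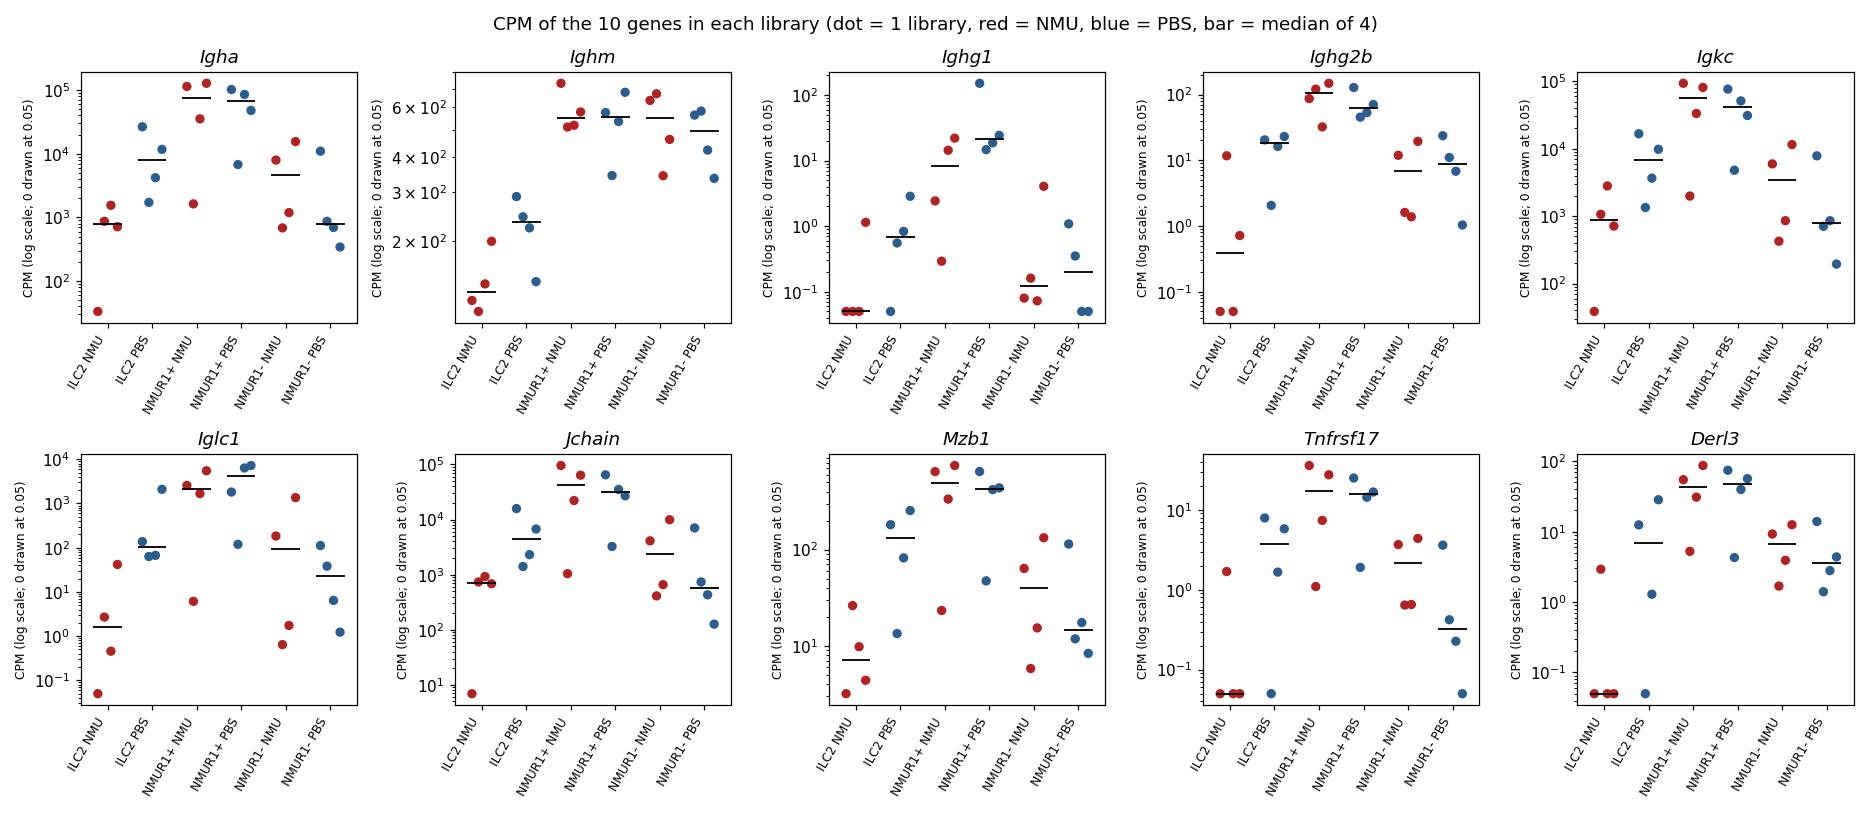
CPM of each of the 10 genes (vertical log axes, each panel with its own range) in each library, by population and treatment. Each dot is 1 library, red for NMU and blue for PBS mice, the bar is the median of 4, and libraries below 0.05 CPM are drawn at 0.05. NMUR1+ libraries are highest in most panels, with 1633 to 127704 CPM of Igha, and Ighm ranges from 112 to 731 CPM over all 24.

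IgA heavy chain RNA differed widely between mice. With NMU, the NMUR1+ libraries of mice 1 to 4 held 114058, 1633, 35289 and 127704 CPM of Igha. With PBS, those of mice 5 to 8 held 101821, 6764, 85270 and 47965 CPM. Mice 2 and 6 were the low ones, and the treatments overlapped.

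In NMUR1- cells Igha was at 7952, 685, 1190 and 15526 CPM in the NMU mice and at 10973, 869, 696 and 343 CPM in the PBS mice. In ILC2 it was at 33.4, 870, 1553 and 714 CPM in the NMU mice and at 26481, 1722, 4209 and 11706 CPM in the PBS mice. Ranked by their medians, the groups ran from NMUR1+ NMU (74673 CPM) and NMUR1+ PBS (66617 CPM) over ILC2 PBS (7957 CPM) and NMUR1- NMU (4571 CPM) to ILC2 NMU (792 CPM) and NMUR1- PBS (783 CPM). In that order each group's range overlapped that of the next. ILC2 NMU and ILC2 PBS, which are not neighbours in it, did not overlap. ILC2 NMU (at most 1553 CPM) also lay below NMUR1+ NMU (at least 1633 CPM) and NMUR1+ PBS (at least 6764 CPM).

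Scaled to exon length, the kappa light chain led the 10 genes. Mean CPM per kilobase (kb) in NMUR1+ libraries was 87491 for Igkc, 24386 for Igha, 15517 for Jchain and 6950 for Iglc1. Mzb1 followed with 341, Ighm with 296, Ighg2b with 32.01, Derl3 with 22.2, Tnfrsf17 with 19.9 and Ighg1 with 12.0 CPM per kb. Igkc also led in ILC2, at 8467, and in NMUR1- cells, at 6655 CPM per kb. These lengths are those of GENCODE M21, which need not be the annotation behind the counts.

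The first question was how the eGFP+ and eGFP- CD4 T cells of the same mice differed. Immunoglobulin and plasma cell RNA was higher in NMUR1+ cells: 7 of the 10 genes passed the threshold (edgeR quasi-likelihood test, Benjamini-Hochberg adjusted p under 0.05 over 13509 genes), all of them higher. Over all genes tested, 5.49% were called higher. The median log2 difference was 3.56 over the 10 genes and -0.01 over all genes. Most of the 10 vary together, so they are not independent results. Apart from Ighm, 9 of the 10 genes were higher in NMUR1+ than in NMUR1- cells of each of the 8 mice, which held for 8.13% of all genes.

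Among the heavy chains, Igha averaged 65063 ± 48822 CPM (SD) in the 8 NMUR1+ libraries and 4779 ± 5918 CPM in the 8 NMUR1- libraries (log2 3.84 ± 1.07 SE, adjusted p = 0.0316 by edgeR). Within a mouse its ratio of NMUR1+ to NMUR1- ran from 2.38 in mouse 2 to 140 in mouse 8. Ighg2b averaged 85.7 ± 42.7 against 9.60 ± 8.56 CPM (log2 3.15 ± 0.87 SE, adjusted p = 0.0293 by edgeR). Its NMUR1+ libraries held 32.2 to 149 CPM and its NMUR1- libraries 1.03 to 23.6 CPM, so that these groups did not overlap.

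Ighg1, the IgG1 heavy chain, was scarce. Its NMUR1+ libraries held 2.43, 0.292, 14.4 and 22.01 CPM with NMU and 151, 14.7, 18.7 and 24.3 CPM with PBS. Its NMUR1- libraries held at most 4.06 CPM, and those of mice 7 and 8 held 0 counts, which allows up to 0.227 and 0.148 CPM (3 counts). The log2 difference was 5.16 (SE 1.18, edgeR adjusted p = 0.00785), and the library of mouse 5 was the highest.

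Ighm, the IgM heavy chain that mature B cells carry before class switching, was the exception. It averaged 559 ± 117 CPM (SD) in the 8 NMUR1+ libraries and 502 ± 130 CPM in the 8 NMUR1- libraries (log2 0.16 ± 0.18 SE, adjusted p = 0.701 by edgeR). The ranges of 343 to 731 CPM in NMUR1+ and 335 to 671 CPM in NMUR1- cells overlapped, and 6 of 8 mice were higher in NMUR1+ cells.

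Of the light chains, Igkc averaged 46545 ± 34643 CPM in NMUR1+ libraries and 3540.2 ± 4324 CPM in NMUR1- libraries (log2 3.78 ± 1.05 SE, adjusted p = 0.0315 by edgeR). Iglc1 averaged 3155 ± 2822 against 213 ± 468 CPM (log2 4.64 ± 1.65 SE, adjusted p = 0.0954 by edgeR) and missed the threshold although all 8 mice pointed the same way. Its ratio within a mouse ran from 3.12 in mouse 6 to 5863 in mouse 8.

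Jchain averaged 39056 ± 33011 CPM in NMUR1+ libraries and 2929 ± 3732 CPM in NMUR1- libraries (log2 3.78 ± 1.12 SE, adjusted p = 0.0433 by edgeR). Mzb1, an ER chaperone that aids IgM assembly and antibody secretion, averaged 414 ± 272 against 46.2 ± 51.4 CPM (log2 3.19 ± 0.88 SE, adjusted p = 0.0308 by edgeR). Tnfrsf17, the receptor BCMA that keeps plasma cells alive, averaged 16.2 ± 12.6 against 1.71 ± 1.83 CPM (log2 3.34 ± 1.03 SE, adjusted p = 0.0461 by edgeR). Derl3 averaged 44.2 ± 30.1 against 6.25 ± 4.98 CPM (log2 2.83 ± 0.97 SE, adjusted p = 0.0808 by edgeR) and did not pass.

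The calls changed with single animals while the fitted differences stayed above 0. With 1 mouse left out, log2 ran from 3.55 to 4.82 for Igha, 3.48 to 4.61 for Jchain, 2.99 to 3.80 for Mzb1 and 2.89 to 3.42 for Ighg2b. With 1 mouse left out, 2, 5, 2, 3, 6, 2, 1 and 1 of the 10 genes were called without mouse 1, 2, 3, 4, 5, 6, 7 and 8. In contrasts within the fit of all 24 libraries, none was called for the 4 NMU mice and 1 for the 4 PBS mice. DESeq2 called 9, and the fit with each mouse as a block called 7 again.

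**Figure D2:**
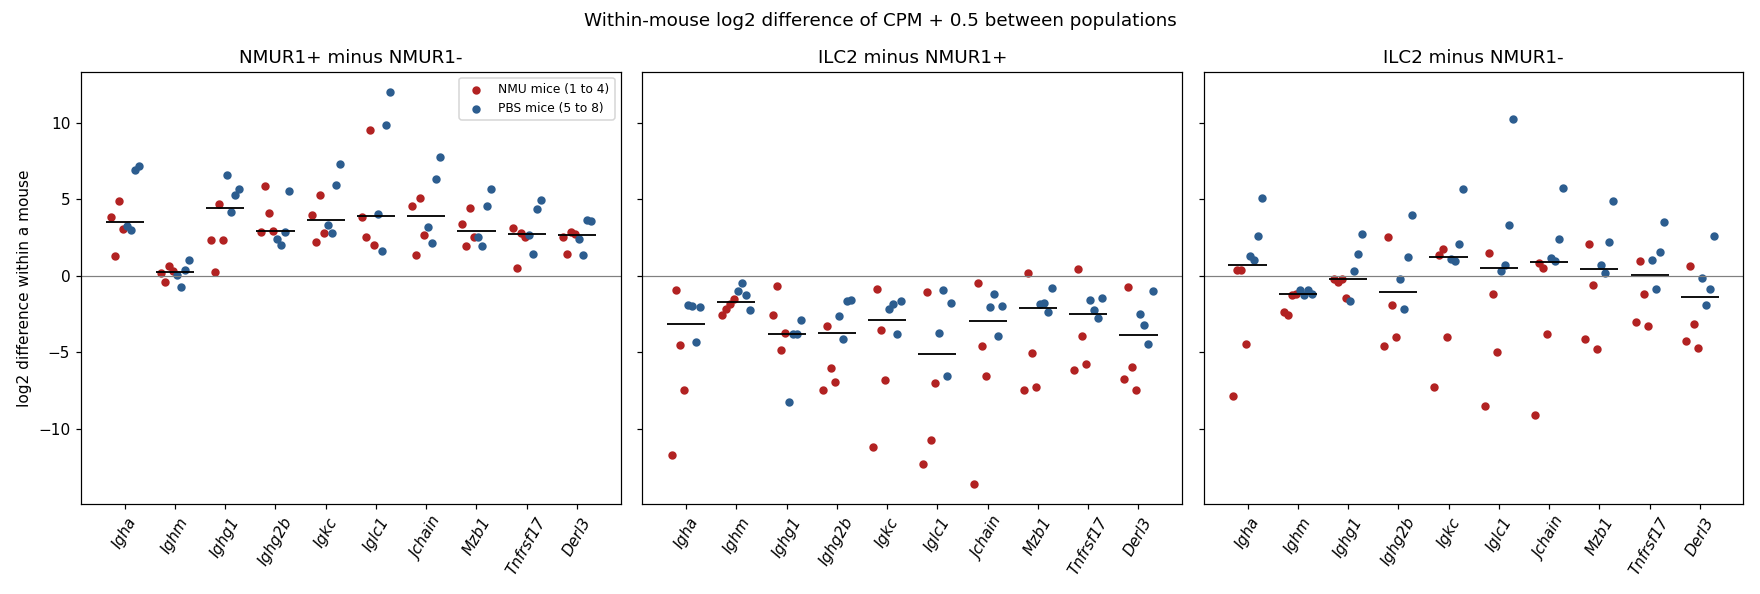
Log2 difference of CPM + 0.5 between populations of the same mouse (vertical axis) for each of the 10 genes, in 3 panels. Each dot is 1 mouse, red for NMU and blue for PBS, and the bar is the median of 8 mice. In the left panel every dot but 2 of Ighm lies above 0, and in the right panel the dots of most genes fall on both sides of 0.

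Genes around antibody secretion were listed too. Of 27 genes of the secretory pathway and ER folding, 13 were higher and none lower in NMUR1+ cells (median log2 0.37, against -0.01 over all genes). Edem2, which directs misfolded glycoproteins to degradation, averaged 341 ± 157 CPM in NMUR1+ libraries and 95.7 ± 17.9 CPM in NMUR1- libraries (log2 1.84 ± 0.31 SE, adjusted p = 0.000597 by edgeR). Sec11c, a subunit of the signal peptidase, averaged 434 ± 83.5 against 260.4 ± 34.9 CPM (log2 0.74 ± 0.10 SE, adjusted p = 5.63e-05 by edgeR). Ssr4, of the translocon-associated complex, averaged 133 ± 41.4 against 72.5 ± 7.24 CPM (log2 0.87 ± 0.16 SE, adjusted p = 0.00136 by edgeR).

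Of 16 tested genes of plasma cell identity and surface, 5 were higher and none lower (median log2 1.23). They include Cd38, an ectoenzyme also made by activated T cells (209 ± 39.7 against 120.0 ± 26.6 CPM; log2 0.80 ± 0.13 SE, adjusted p = 0.000318 by edgeR), and Ell2, an elongation factor (476 ± 133 against 225 ± 93.2 CPM; log2 1.08 ± 0.21 SE, adjusted p = 0.00203 by edgeR). Xbp1, the transcription factor of the secretory programme, averaged 1909 ± 723 CPM in NMUR1+ libraries and 1034 ± 164 CPM in NMUR1- libraries (log2 0.89 ± 0.19 SE, adjusted p = 0.00368 by edgeR). Several of these genes are also used by T cells.

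The list of other constant genes summed to 21.0 to 1022 CPM in NMUR1+ and to 9.08 to 223 CPM in NMUR1- libraries. Of 5 tested, Ighg2c alone passed (31.9 ± 54.7 against 2.17 ± 2.10 CPM; log2 3.71 ± 1.14 SE, adjusted p = 0.0495 by edgeR), in 7 of 8 mice, and 12 of 15 alternatives ended that call. Of 8 tested genes of the plasma cell niche and IgA transport, Il6, a cytokine for plasma cells, was higher (1.74 ± 1.56 against 0.255 ± 0.240 CPM; log2 2.86 ± 0.82 SE, adjusted p = 0.0318 by edgeR). Tgfb1, whose product promotes switching to IgA, was lower in NMUR1+ cells (13.7 ± 5.35 against 27.7 ± 13.3 CPM; log2 -0.99 ± 0.31 SE, adjusted p = 0.0496 by edgeR). The call of Il6 held in 7 and that of Tgfb1 in 5 of 15 alternatives.

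Markers of other cells were compared in the same libraries. Of 15 mature B cell genes, 4 were higher in NMUR1+ cells (median log2 0.66), among them Cd79b of the B cell receptor (107 ± 38.01 against 37.2 ± 12.6 CPM; log2 1.52 ± 0.25 SE, adjusted p = 0.000454 by edgeR) and Cd72, a B cell coreceptor (103 ± 21.0 against 43.7 ± 16.9 CPM; log2 1.24 ± 0.21 SE, adjusted p = 0.000658 by edgeR). Vpreb3 also rose (22.9 ± 20.3 against 3.47 ± 2.88 CPM; log2 2.71 ± 0.75 SE, adjusted p = 0.0265 by edgeR), a call kept in 9 of 15 alternatives. The B cell list summed to 297 to 690 CPM in NMUR1+ and to 114 to 348 CPM in NMUR1- libraries, with no gene at 0 throughout either population. A macrophage list rose in 5 of 10 genes and summed to 1005 to 3327 CPM in NMUR1+ and 284 to 1009 CPM in NMUR1- libraries. Of 8 epithelium genes 1 was higher (median log2 -0.28), and none of 6 fibroblast genes passed (median log2 0.85). None of 7 T cell genes differed at the threshold and 7 of 8 ILC2 genes were higher. The part of other cells in the differences of the 10 genes was not tested.

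ILC2 were then compared with the eGFP+ T cells, the other population sorted on the reporter. All 10 genes were lower in ILC2 (10 of 10 past the threshold, where 23.5% of all 13509 genes were called lower). Their median log2 difference was -4.00, against -0.10 over all genes. In ILC2 of every mouse 8 of the 10 were lower, as were 12.7% of all genes. Because most of the 10 vary together, they are not independent results.

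**Figure D3:**
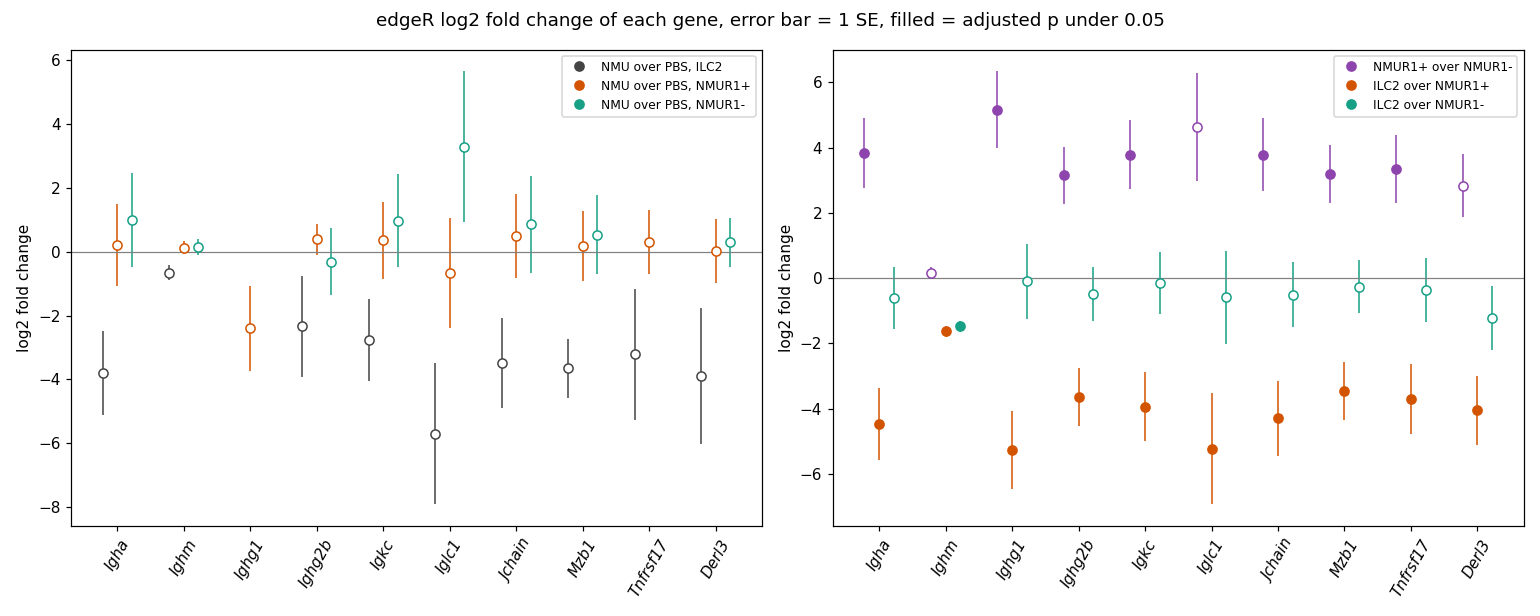
Fitted edgeR log2 fold changes (vertical axes) of the 10 genes with error bars of 1 SE, for NMU over PBS in each population (left) and for the 3 comparisons between populations (right). Filled points passed an adjusted p of 0.05. The ILC2 over NMUR1+ points lie between -1.63 and -5.26 and are all filled, while no point of the left panel is filled.

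Ighm fell least and with the smallest error. It averaged 184 ± 64.1 CPM (SD) in the 8 ILC2 libraries and 559 ± 117 CPM in the 8 NMUR1+ libraries (log2 -1.63 ± 0.18 SE, adjusted p = 1.81e-07 by edgeR), and the highest ILC2 library (288 CPM) was below the lowest NMUR1+ library (343 CPM). Igha averaged 5911 ± 9127 against 65063 ± 48822 CPM (log2 -4.46 ± 1.10 SE, adjusted p = 0.00342 by edgeR). Its ratio of ILC2 to NMUR1+ cells ran from 0.000293 in mouse 1 to 0.533 in mouse 2.

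The remaining constant genes had log2 differences of -5.26 for Ighg1 (SE 1.19, edgeR adjusted p = 0.00141), -3.64 for Ighg2b (SE 0.90, edgeR adjusted p = 0.00321), -3.94 for Igkc (SE 1.06, edgeR adjusted p = 0.00625) and -5.23 for Iglc1 (SE 1.70, edgeR adjusted p = 0.0202). Jchain was at -4.29 (SE 1.15, edgeR adjusted p = 0.00599), Mzb1 at -3.45 (SE 0.89, edgeR adjusted p = 0.00488), Tnfrsf17 at -3.70 (SE 1.06, edgeR adjusted p = 0.00828) and Derl3 at -4.05 (SE 1.06, edgeR adjusted p = 0.00467). Mzb1 and Tnfrsf17 were lower in ILC2 of 7 mice, and mouse 2 had more of both in ILC2 (26.1 and 1.69 CPM) than in NMUR1+ cells (23.2 and 1.10 CPM). Within the fit of all 24 libraries, 2 of the 10 genes were called in the contrast of the 4 PBS mice and all 10 in that of the 4 NMU mice. Iglc1 lost its call without mouse 1, 5 or 7.

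Lower in ILC2 were 13 of 16 genes of plasma cell identity (1 higher) and 19 of 27 of the secretory pathway (2 higher). So were 4 of 5 other constant genes, 14 of 15 mature B cell genes and 3 of 8 niche genes. Over all genes, 23.5% were called lower. Xbp1 averaged 732 ± 132 CPM in ILC2 libraries and 1909 ± 723 CPM in NMUR1+ libraries (log2 -1.38 ± 0.19 SE, adjusted p = 4.27e-06 by edgeR). Tnfrsf13b, the BAFF and APRIL receptor TACI, averaged 4.32 ± 2.98 against 59.4 ± 24.7 CPM (log2 -3.79 ± 0.49 SE, adjusted p = 2.55e-06 by edgeR). Cd38 averaged 59.3 ± 10.5 against 209 ± 39.7 CPM (log2 -1.81 ± 0.13 SE, adjusted p = 3.11e-10 by edgeR).

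In the secretory list, Edem1, like Edem2 a degradation factor, averaged 151 ± 45.4 CPM in ILC2 libraries and 774 ± 343 CPM in NMUR1+ libraries (log2 -2.37 ± 0.25 SE, adjusted p = 1.72e-07 by edgeR). Fkbp2 and Pdia4, folding enzymes of the ER, were at log2 -1.17 (SE 0.16, edgeR adjusted p = 4.44e-06) and -1.41 (SE 0.20, edgeR adjusted p = 6.26e-06). Of these lists, 3 genes went the other way. Ern1, the ER stress sensor upstream of Xbp1 splicing, averaged 81.3 ± 26.5 in ILC2 against 27.9 ± 7.56 CPM (log2 1.51 ± 0.23 SE, adjusted p = 1.96e-05 by edgeR), Dnajc3, an ER cochaperone, was at log2 0.71 (SE 0.15, edgeR adjusted p = 0.000858), and Ell2 at 0.53 (SE 0.21, edgeR adjusted p = 0.0488), a call that 9 of 15 alternatives ended.

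Ighg3 had 0 counts in all 8 ILC2 libraries and averaged 4.35 ± 5.49 CPM in NMUR1+ cells (edgeR adjusted p = 0.0106). Ighg2c was at log2 -4.23 (SE 1.18, edgeR adjusted p = 0.00743) and Iglc3 at -4.06 (SE 1.25, edgeR adjusted p = 0.0149). Cd40lg, the T cell signal for class switching, averaged 1.42 ± 1.84 CPM in ILC2 libraries, with 0 counts in all 4 NMU libraries, and 76.3 ± 35.1 CPM in NMUR1+ libraries (adjusted p = 1.65e-10 by edgeR). Il10, a cytokine, was at log2 -4.26 (SE 0.69, edgeR adjusted p = 6.81e-05) and Pigr, the epithelial receptor that carries IgA, at -3.71 (SE 1.27, edgeR adjusted p = 0.0238), though 2 of 8 mice had more Pigr in ILC2.

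The B cell genes Cr2 and Pax5 also had 0 counts in all ILC2 libraries, against 7.83 ± 4.64 and 1.67 ± 0.602 CPM in NMUR1+ cells (edgeR adjusted p = 3.02e-08 and 1.59e-06), and Fcrla was at log2 -6.72 (SE 0.72, edgeR adjusted p = 1.46e-07). The B cell list summed to 135 to 367 CPM in ILC2 with Pax5, Cr2 and Spib at 0. Macrophage genes were lower in 8 of 10 cases and summed to 42.1 to 986 CPM in ILC2, against 1005 to 3327 CPM in NMUR1+ cells. Whether other cells had a part in these differences was not tested.

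Between ILC2 and eGFP- T cells, of the 10 genes only Ighm differed at the threshold, in 1 direction, lower in ILC2, where 24.1% of all genes were called lower. It averaged 184 ± 64.1 CPM in ILC2 libraries and 502 ± 130 CPM in NMUR1- libraries (log2 -1.48 ± 0.18 SE, adjusted p = 5.64e-07 by edgeR) and was lower in ILC2 of all 8 mice, as were 14.9% of all genes. Igha averaged 5911 ± 9127 against 4779 ± 5918 CPM (log2 -0.61 ± 0.96 SE, adjusted p = 0.653 by edgeR), with 6 of 8 mice higher in ILC2. The fitted value is the mean of the log2 differences in NMU mice (-3.00) and in PBS mice (1.78), so its sign can differ from that of the means over 8 mice. With the mouse as a block it was 0.31 (edgeR adjusted p = 0.836), so no direction is given for Igha. Igkc was at log2 -0.15 (SE 0.94, edgeR adjusted p = 0.916), Jchain at -0.51 (SE 1.00, edgeR adjusted p = 0.724) and Iglc1 at -0.59 (SE 1.43, edgeR adjusted p = 0.778), although all 3 means were higher in ILC2. Igkc averaged 4505 CPM in ILC2 against 3540.2 in NMUR1- cells, Jchain 3572 against 2929 and Iglc1 300.5 against 213, with 6, 6 and 5 of 8 mice higher in ILC2. With the mouse as a block Igkc was at 0.72, Jchain at 0.46 and Iglc1 at -0.90.

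Ighg1, Ighg2b, Mzb1, Tnfrsf17 and Derl3 had log2 differences of -0.10, -0.49, -0.26, -0.36 and -1.22, with edgeR adjusted p from 0.347 to 0.955. The means of Mzb1 (71.9 CPM in ILC2 against 46.2 CPM in NMUR1- cells) and Tnfrsf17 (2.13 against 1.71 CPM) went the other way, with 5 and 4 of 8 mice higher in ILC2, and the block gave 0.19 for Mzb1 and 0.15 for Ighg1. The sign of all but Ighm turned in the 4 PBS mice alone, where Igha was at log2 1.78 and Jchain at 1.65. Mice 1 and 4 had the lowest Igha ratios of ILC2 to NMUR1- cells, 0.00421 and 0.0460, and mouse 8 the highest, 34.1. Without mouse 2, Ighg2b and Derl3 joined Ighm past the threshold, both lower in ILC2.

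Against NMUR1- cells, 10 of 16 plasma cell identity genes were lower in ILC2 and 1 higher. Of 27 secretory genes, 10 were lower and 4 higher. Over all 13509 genes, 3252 were called lower and 2219 higher. Median log2 was -1.1 for the identity genes, -0.11 for the secretory genes and -0.12 over all genes. Prdm1, which encodes the plasma cell factor Blimp-1 and is also used by T cells, averaged 20.6 ± 11.8 CPM in ILC2 libraries and 46.7 ± 7.64 CPM in NMUR1- libraries (log2 -1.17 ± 0.28 SE, adjusted p = 0.00182 by edgeR). Cd38 was at log2 -1.02 (SE 0.13, edgeR adjusted p = 1.06e-06), Tnfrsf13b at -2.41 (SE 0.47, edgeR adjusted p = 0.000258) and Ell2 at 1.61 (SE 0.21, edgeR adjusted p = 2.49e-06). Of the secretory genes, Dnajb11, Edem1 and Derl2 were lower by 0.79, 1.47 and 0.62 on the log2 scale, and Ern1, Sec11c and Dnajb9 higher by 1.45, 0.54 and 0.45 (edgeR adjusted p from 1.71e-05 to 0.000994).

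Of 15 mature B cell genes, 11 were lower and 2 higher in ILC2. Cd72 averaged 118 ± 35.4 CPM in ILC2 libraries and 43.7 ± 16.9 CPM in NMUR1- libraries (log2 1.43 ± 0.22 SE, adjusted p = 1.13e-05 by edgeR) and Cd79b 70.9 ± 40.9 against 37.2 ± 12.6 CPM (log2 0.82 ± 0.25 SE, adjusted p = 0.0116 by edgeR). Cr2 and Pax5, at 0 in ILC2, averaged 4.48 ± 2.33 and 1.90 ± 0.863 CPM in NMUR1- cells, and Fcrla was at log2 -5.10 (SE 0.70, edgeR adjusted p = 3.79e-06). Of 5 other constant genes, 2 passed: Ighg3, at 0 in ILC2 and 7.80 ± 21.6 CPM in NMUR1- cells (edgeR adjusted p = 0.0187, but 1.00 without mouse 1), and Ighd of IgD at log2 -2.62 (SE 1.00, edgeR adjusted p = 0.0402, a call kept in 6 of 15 alternatives).

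Of 8 niche genes, 4 were lower in ILC2, among them Cd40lg, at 1.42 ± 1.84 CPM in ILC2 against 101 ± 22.1 CPM (edgeR adjusted p = 4.6e-11). Tgfb1 was at log2 -1.63 (SE 0.32, edgeR adjusted p = 0.000226) and Il10 at -2.95 (SE 0.65, edgeR adjusted p = 0.00119). Il6 was higher, at 4.45 ± 3.11 CPM in ILC2 libraries and 0.255 ± 0.240 CPM in NMUR1- libraries (log2 3.95 ± 0.85 SE, adjusted p = 0.000702 by edgeR).

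The other question was whether NMU changed the 10 genes. In ILC2 none of the 9 tested genes passed (edgeR, 74 of 11205 genes called, 0.66%), Ighg1 being too low to test. At an unadjusted p under 0.05 there were 5 of 9, where 12.4% of all genes reached it, and DESeq2 called 2, Igha and Mzb1. All 9 log2 differences were below 0 with a median of -3.48, against -0.03 over all genes.

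For Igha, Iglc1 and Jchain each of the 4 NMU libraries lay below all 4 PBS libraries, which was so for 4.78% of all genes. Igha averaged 793 ± 623.5 CPM (SD) in the 4 NMU libraries and 11029 ± 11141 CPM in the 4 PBS libraries (log2 -3.80 ± 1.31 SE, adjusted p = 0.307 by edgeR). Jchain was at 6.92, 737, 926 and 685 CPM with NMU and at 15789, 1406, 2304 and 6724 CPM with PBS (log2 -3.48 ± 1.41 SE, adjusted p = 0.381 by edgeR). Iglc1 was at 0, 2.70, 0.457 and 41.8 CPM with NMU and at 137, 63.3, 67.3 and 2092 CPM with PBS (log2 -5.70 ± 2.21 SE, adjusted p = 0.363 by edgeR).

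Mzb1 came nearest to the threshold. It was at 3.17, 26.1, 9.75 and 4.36 CPM with NMU and at 182, 13.4, 82.0 and 255 CPM with PBS (log2 -3.65 ± 0.92 SE, adjusted p = 0.12 by edgeR). One NMU library, of mouse 2, was above the PBS library of mouse 6. Igkc was at log2 -2.77 (SE 1.29, edgeR adjusted p = 0.459), Ighm at -0.66 (SE 0.24, edgeR adjusted p = 0.28), Ighg2b at -2.34 (SE 1.57, edgeR adjusted p = 0.629), Tnfrsf17 at -3.21 (SE 2.05, edgeR adjusted p = 0.603) and Derl3 at -3.89 (SE 2.13, edgeR adjusted p = 0.525).

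Tnfrsf17 and Derl3 had 0 counts in 3 of the 4 NMU libraries of ILC2, in mice 1, 3 and 4, and in the PBS library of mouse 6. Each 0 allows up to 0.215 to 0.297 CPM (3 counts of that library). With PBS, Tnfrsf17 reached 7.92 CPM and Derl3 28.4 CPM. With 1 mouse left out, the fitted differences ran from -8.57 to -2.58 for Tnfrsf17, -10.02 to -2.66 for Derl3 and -9.23 to -2.98 for Iglc1, against -4.37 to -2.90 for Igha. Differences of Tnfrsf17 and Derl3 were not detectable at this depth and spread.

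Markers of other cells were summed in the same 8 libraries. The macrophage list summed to 42.1 to 352 CPM with NMU and to 79.1 to 986 CPM with PBS, and a fibroblast list of 6 genes to 0 to 28.0 CPM with NMU and to 11.1 to 379 CPM with PBS. The median log2 difference was -1.79 over 10 macrophage genes and -4.49 over the 5 fibroblast genes tested, with none past the threshold, and their part in the lower immunoglobulin values was not tested. An epithelium list of 8 genes summed to 38.4 to 65.0 CPM with NMU and to 15.4 to 30.6 CPM with PBS, a difference carried by Epcam (43.0 ± 12.3 CPM in NMU libraries, 11.5 ± 2.605 CPM in PBS libraries; log2 1.88 ± 0.32 SE, adjusted p = 0.0308 by edgeR, called in 7 of 13 alternatives). The median log2 difference over the 4 epithelium genes tested was -0.46. The B cell list summed to 135 to 367 CPM with NMU and to 162 to 263 CPM with PBS, with Pax5, Cr2 and Spib at 0 in both.

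In the lists around antibody secretion, 1 gene changed with NMU in ILC2. Irf4, a transcription factor of plasma cells that activated lymphocytes also use, averaged 193 ± 23.7 CPM in NMU libraries and 46.9 ± 9.81 CPM in PBS libraries (log2 2.02 ± 0.19 SE, adjusted p = 0.00156 by edgeR) and passed under all 13 alternatives. None of 27 secretory genes (median log2 -0.23), 5 mature B cell genes, 3 other constant genes or 6 niche genes passed.

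In NMUR1+ cells none of the 10 genes was called, nor any other gene (0 of 12061, 0.0%; 307 genes or 2.55% at an unadjusted p under 0.05, and 4 genes by DESeq2, none of the 10). Igha averaged 69671 ± 60963 CPM in NMU libraries and 60455 ± 42291 CPM in PBS libraries (log2 0.20, SE 1.28). The difference farthest from 0 was that of Ighg1, at 9.78 ± 10.2 CPM in NMU libraries and 52.2 ± 66.1 CPM in PBS libraries (log2 -2.40, SE 1.32, edgeR unadjusted p = 0.114), whose PBS mean rests on mouse 5. Ighm was at 585 ± 103 against 533 ± 141 CPM (log2 0.13, SE 0.20).

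In NMUR1- cells, 8 of the 10 genes were tested and none passed, again with no gene called at all (0 of 12103, 0.0%; 877 genes or 7.25% unadjusted, 23 by DESeq2, none of the 10). Igha averaged 6338 ± 6964 CPM in NMU libraries and 3220.3 ± 5173 CPM in PBS libraries (log2 0.98 ± 1.47 SE, adjusted p = 0.928 by edgeR). Iglc1 was at 184, 0.643, 1.74 and 1359 CPM with NMU and at 112, 38.3, 6.43 and 1.23 CPM with PBS (log2 3.29 ± 2.36 SE, adjusted p = 0.822 by edgeR). With 1 mouse left out the log2 values ran from 0.04 to 3.29 for Igha, 0.02 to 2.97 for Igkc and 0.66 to 4.63 for Iglc1. Mice of either treatment were high or low, and the groups overlapped for all 8 genes.

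The NMU effect itself was compared between populations. None of the 10 genes differed at the threshold between ILC2 and NMUR1+ cells (0.725% of 13509 genes did) or between ILC2 and NMUR1- cells (0.533%), while 2 and 6 of the 10 reached an unadjusted p under 0.05, against 13.2% and 11.3% of all genes. For Igha the NMU effect in ILC2 minus that in NMUR1+ cells was -4.00 on the log2 scale (SE 1.98, edgeR adjusted p = 0.402), and minus that in NMUR1- cells -4.78 (SE 2.01, edgeR adjusted p = 0.341). Iglc1 lay farthest from 0 against NMUR1- cells, -8.99 (SE 3.28, edgeR adjusted p = 0.263), which DESeq2 called. With the mouse as a block these 3 differences were -2.33, -3.63 and -5.88, none past the threshold. The comparisons share the ILC2 libraries, and most of the 10 genes vary together, so these results are not independent.

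In the lists around antibody secretion Irf4 and Cd40lg passed both tests. The difference of NMU effects was 2.17 for Irf4 against NMUR1+ (SE 0.26, edgeR adjusted p = 0.000151) and 2.06 against NMUR1- cells (SE 0.26, edgeR adjusted p = 0.000361). For Cd40lg it was -7.68 (SE 1.23, edgeR adjusted p = 0.00575) and -8.17 (SE 1.21, edgeR adjusted p = 0.0027), with ILC2 libraries at 0 to 4.00 CPM and 0 counts in all 4 with NMU, so these fitted values are no measure of size.

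What the constant genes made up within a library was taken from their counts, with 95% Wilson intervals that cover counting error only. In NMUR1+ libraries Igha made up 94.2 to 99.4% of heavy chain constant counts in 7 of 8 mice and 71.6% (71.1 to 72.1%) in mouse 2. In ILC2 it made up 77.8 to 98.8% in 7 mice and 20.4% in mouse 1, where Ighm was 75.0% (72.9 to 77.1%). In NMUR1- libraries the share of Igha ran from 49.8% in mouse 8 to 96.9% in mouse 4. IgG genes held 0 to 1.21% in ILC2, 0.104 to 5.34% in NMUR1+ and 0.130 to 0.888% in NMUR1- libraries.

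**Figure D4:**
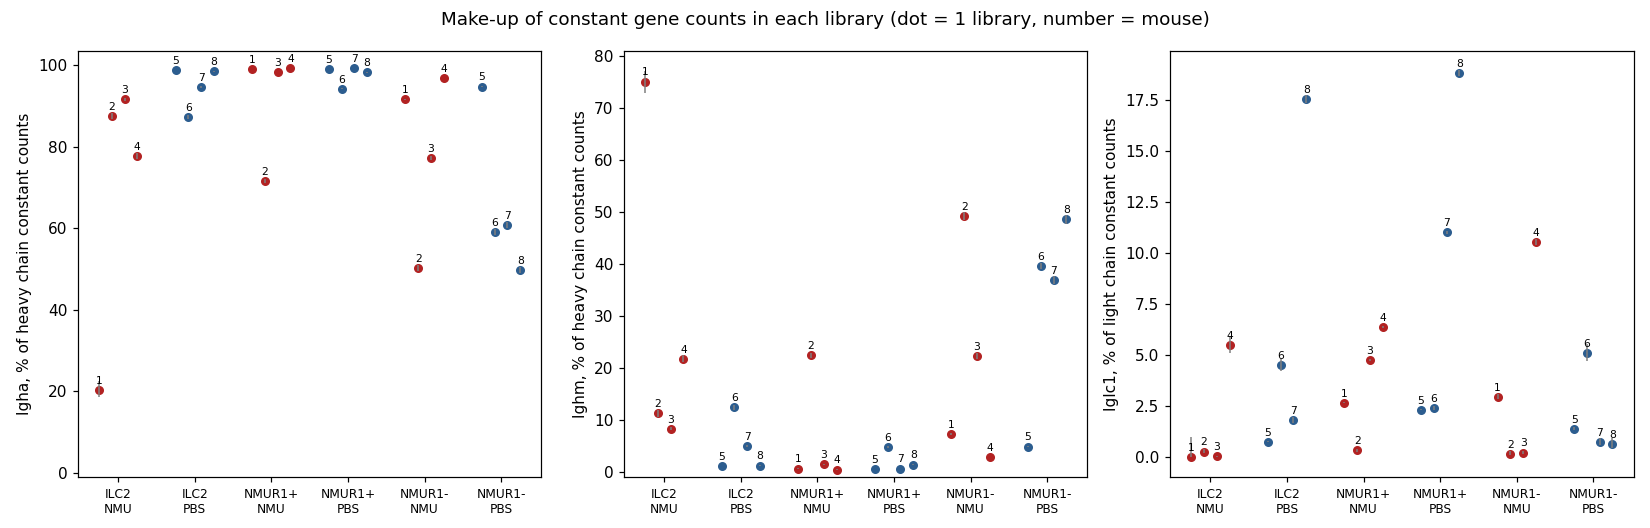
Percent of heavy chain constant counts from Igha (left) and Ighm (middle), and percent of light chain constant counts from Iglc1 (right), in each library by population and treatment. Each dot is 1 library with its mouse number, red for NMU and blue for PBS, and grey lines are 95% Wilson intervals, mostly smaller than the dot. Igha is at 94.2% or more in 7 of 8 NMUR1+ libraries, and Iglc1 is at 17.6% in ILC2 and 18.8% in NMUR1+ cells of mouse 8 but at 0.615% in its NMUR1- cells.

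Iglc1 was 17.6% of light chain constant counts in ILC2 of mouse 8 (17.4 to 17.8%), 18.8% in its NMUR1+ cells (18.7 to 19.0%) and 0.615% in its NMUR1- cells (0.417 to 0.907%). In mouse 7 it was 1.80%, 11.03% and 0.737%, in the same order, and in mouse 4 it was 5.49%, 6.36% and 10.5%. ILC2 of mouse 1 had 0 of 392 light chain counts from Iglc1, which allows up to 0.971% by the Wilson interval. Iglc1 is not all of lambda. In ILC2 of mouse 5, Iglc1 was 0.732% but the lambda constant genes together 11.2%, and in ILC2 of mouse 8 they were 17.8%.

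Counts of Igha per count of Jchain ran from 1.04 to 4.83 over the 24 libraries with a median of 1.67, and medians were 1.68 in ILC2, 1.69 in NMUR1+ and 1.64 in NMUR1- libraries. Igha per Igkc count ran from 0.554 to 1.76. Igha per Ighm count ran from 0.272 to 221, with medians of 9.40 in ILC2, 113 in NMUR1+ and 2.56 in NMUR1- libraries.

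Over the 24 libraries, which share mice, depth and scaling, Pearson's r of log2(CPM + 0.5) was 0.99 between Igha and Igkc and between Igha and Jchain, 0.96 with Mzb1, 0.93 with Tnfrsf17 and 0.86 with Derl3. Ighm correlated less with the other 9 genes, at 0.41 to 0.60. Ighg2b went with Igha in ILC2 (0.76) and NMUR1- cells (0.80), but at 0.11 within the 8 NMUR1+ libraries.

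By that measure 8 genes outside both the 10 and the immunoglobulins were most like Jchain, among 9514 genes with a mean of at least 5 CPM. They were Eaf2 (0.922), a factor that binds ELL elongation factors, Slpi (0.909), a secreted protease inhibitor, Vpreb3 (0.902), of the pre-B cell receptor family, Apobec1 (0.884), an RNA-editing enzyme, Lmbrd1 (0.882), of lysosomal cobalamin export, and Ckap4 (0.880), an ER membrane protein, followed by Edem2 (0.867) and Fkbp11 (0.857), which act in ER quality control and folding. Slpi had medians of 8.38, 344 and 14.95 CPM in ILC2, NMUR1+ and NMUR1- libraries, in that order. Eaf2 had medians of 1.95, 22.6 and 1.67 CPM there, and Jchain of 1166, 31039 and 697 CPM. By median, all 3 were highest in NMUR1+ libraries. Their ranges in ILC2 and NMUR1- libraries overlapped, so no order between those populations is given. Since the genes were chosen by this correlation, their pattern is a description.

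Whether high Igha went with the mouse was asked last. Across the 8 mice, log2 Igha of NMUR1+ and NMUR1- cells had Pearson's r = 0.57 (exact permutation p = 0.135, adjusted over 3 pairs of populations 0.406) and Spearman's rho = 0.714 (exact permutation p = 0.0576, adjusted 0.173), two-sided. Without mice 2 and 6, farthest from the median in NMUR1+ cells, r was 0.765. Within treatments r was 0.861 over the 4 NMU mice and 0.355 over the 4 PBS mice, each too few to test.

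Igha in ILC2 and NMUR1+ cells had r = 0.0285 (exact permutation p = 0.933, adjusted 0.933; rho = -0.19, exact permutation p = 0.665, adjusted 0.665), and 0.318 without mice 1 and 5. ILC2 and NMUR1- cells had r = -0.292 (exact permutation p = 0.494, adjusted 0.741; rho = -0.31, exact permutation p = 0.462, adjusted 0.665), and -0.678 without mice 1 and 5. Within treatments these were -0.43 with NMU and 0.775 with PBS against NMUR1+ cells, and -0.503 and 0.561 against NMUR1- cells. None of the 3 relations passed. The permutations ran over all mice regardless of treatment, while Igha in ILC2 did not overlap between treatments. The pooled tests that involve ILC2 therefore cannot tell the mouse from the treatment.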

How the data were processed

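RNA of 24 libraries (6 groups, n = 4 mice each) was purified on RNeasy Micro columns, and the libraries came from NEBNext Single Cell/Low Input reagents, per the labels' protocols, a kit that marks neither strand nor molecules. The deposited values are raw read counts per gene, made by the authors. Reads were aligned with STAR 2.5.3 to mm10 (GRCm38), per the submitters' processing notes. No source used here gives the counting tool, annotation or strand setting, so reads of near-identical immunoglobulin genes and of overlapping or antisense genes may be split or shared, and values of immunoglobulin genes are uncertain to that degree. Of 27179 identifiers, 25275 (93.0%) matched a RefSeq symbol, and the others held 0.986% of counts.

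Tests of the counts used edgeR 4.0.16 under R 4.3.3 (robust quasi-likelihood test, TMM scaling, filterByExpr with a minimum count of 10, Benjamini-Hochberg threshold 0.05 over all genes tested). The treatments were compared separately in the 8 libraries of every population. Populations, and NMU effects between populations, were compared in 1 fit of all 24. SE is the log2 fold change divided by the square root of F. CPM used TMM-scaled library sizes of that fit, with 0.5 added for log2 values, and union exon lengths came from GENCODE M21. The tests were also run on simulated counts, drawn independently for each library without shared mice. That setting differs from these libraries, so no conclusion is drawn from it. Alternatives were DESeq2 1.42.0, its size factors, no filter, immunoglobulin genes (261 with Jchain) left out of scaling, all 24 libraries for the treatment comparisons, each treatment alone, the mouse as a block, and each mouse left out. Each treatment alone means a contrast of its groups within the fit of all 24 libraries, so spread and scaling came from both treatments. Python 3.11.15, scipy 1.17.1 and matplotlib 3.10.9 were used for shares, permutations and figures.

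The labels give each mouse all 3 populations, so mouse numbers pair libraries of the same animal. Deviations from group means correlated at -0.011 to 0.155 between ILC2 and NMUR1+, 0.001 to 0.227 between ILC2 and NMUR1-, and 0.029 to 0.432 between NMUR1+ and NMUR1- libraries of a mouse. No libraries of a group agreed within sampling noise (chi-square per degree of freedom at least 16.55). Intervals and the limits for 0 counts (3 counts) cover counting error only, since PCR copies were not told apart.

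The 10 genes and the lists were chosen with earlier results of these data known. Named beside the 10 were up to 3 genes per list and direction with the smallest p among those past the threshold, and the 8 genes most like Jchain with a mean of at least 5 CPM. The T cell, ILC2, macrophage, fibroblast and epithelium lists are given as counts and summed levels, with Epcam named for 1 comparison. Of the epithelium list, 1 of 8 genes was higher in NMUR1+ than in NMUR1- cells, and of the fibroblast list none of 6.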

Additional observations from a re-analysis of the deposited data

Results flagged for a closer look

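Among 60 groups of 4 libraries (10 genes in 6 groups), 14 had 1 library far above the other 3, with a gap to the next of more than 0.829 of the group's range. Chance gives about 1 in 20 groups for normally distributed values, which was not checked for these CPM, and the 10 genes vary together, so the groups are not independent. In 3 of the 14 the other 3 libraries were at 0, a pattern that always passes.

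In NMUR1- cells of PBS mice, mouse 5 stood apart for 5 genes. It had 10973 CPM of Igha where the others had 343 to 869, 7833 CPM of Igkc (others 195 to 856), 7046 CPM of Jchain (others 127 to 736), 114 CPM of Mzb1 (others 8.33 to 17.4) and 3.62 CPM of Tnfrsf17 (others 0.0493 to 0.421). The same mouse had 151 CPM of Ighg1 in NMUR1+ cells, where the other PBS mice had 14.7 to 24.3.

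Mouse 4 stood apart for 2 genes in NMUR1- cells of NMU mice, with 4.06 CPM of Ighg1 (others 0.0726 to 0.161) and 1359 CPM of Iglc1 (others 0.643 to 184). In ILC2 of NMU mice it had 1.14 CPM of Ighg1, where the others had 0, and 41.8 CPM of Iglc1 (others 0 to 2.70). In the same group mouse 2 had 11.7 CPM of Ighg2b (others 0 to 0.715), 1.69 CPM of Tnfrsf17 and 2.93 CPM of Derl3, each with the others at 0. Mouse 8 had 2092 CPM of Iglc1 in ILC2 of PBS mice, where the others had 63.3 to 137. No cause of these differences was tested.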

How the results depend on the processing

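Of the alternative log2 values of the 10 genes, 937 kept direction and side of the threshold, 60 lost a call, 7 gained one and 56 changed sign. Genes called for NMU in ILC2 numbered 74, against 665 by DESeq2, 1053 with all 24 libraries in 1 fit and 12 to 63 with 1 mouse left out. In NMUR1+ cells they numbered 0, 4 by DESeq2 and 0 to 1, and in NMUR1- cells 0 and 23 by DESeq2. Between NMUR1+ and NMUR1- cells 1123 genes were called, 218 in NMU mice alone, 227 in PBS mice alone and 609 to 1035 with 1 mouse left out. ILC2 against NMUR1+ gave 5218, 3287 in NMU and 3354 in PBS mice alone, and ILC2 against NMUR1- 5471 and 3437 in PBS mice alone. The NMU effect differed between ILC2 and NMUR1+ for 98 genes, 54 without the filter, 542 by DESeq2 and 30 to 106 with 1 mouse left out, and between ILC2 and NMUR1- for 72, 412 by DESeq2 and 20 to 83.

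Of the 10 genes, DESeq2 called 2 for NMU in ILC2 and 1 for the difference of NMU effects between ILC2 and NMUR1- cells. Between NMUR1+ and NMUR1- cells 7 became 0 in NMU mice alone, 1 in PBS mice alone and 1 to 6 with 1 mouse left out. ILC2 against NMUR1+ gave 10, and 2 in PBS mice alone, and ILC2 against NMUR1- 1 to 3 with 1 mouse left out. With the mouse as a replicate block (pairing), no call of the 10 genes changed. The block gave 46 and 36 genes with a differing NMU effect against NMUR1+ and NMUR1- cells. Under the block, ILC2 against NMUR1- changed sign for Igha (0.31), Ighg1 (0.15), Igkc (0.72), Jchain (0.46) and Mzb1 (0.19), and the Ighg1 difference of NMU effects against NMUR1+ was -1.33. None of these passed a threshold.

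In PBS mice alone, ILC2 against NMUR1- changed sign for Igha (1.78), Ighg1 (1.59), Ighg2b (0.54), Igkc (1.71), Iglc1 (3.90), Jchain (1.65), Mzb1 (1.81), Tnfrsf17 (1.84) and Derl3 (0.91). With 1 mouse left out, the log2 values of that comparison ran from -1.05 to 0.13 for Igha, -0.94 to 0.88 for Ighg1, -2.39 to 0.10 for Ighg2b, -0.78 to 0.55 for Igkc, -2.16 to 0.27 for Iglc1, -0.83 to 0.18 for Jchain, -0.88 to 0.47 for Mzb1 and -3.18 to 0.45 for Tnfrsf17. For NMU in NMUR1+ cells they ran from -0.28 to 0.61 for Igha, -0.03 to 0.27 for Ighm, -0.08 to 0.85 for Igkc, -0.17 to 1.06 for Jchain, -0.22 to 0.57 for Mzb1, -0.27 to 0.70 for Tnfrsf17 and -0.54 to 0.41 for Derl3. For NMU in NMUR1- cells they ran from -0.00 to 0.30 for Ighm, -1.09 to 0.43 for Ighg2b, -0.26 to 3.10 for Jchain, -0.41 to 2.10 for Mzb1 and -0.17 to 1.23 for Derl3. The Ighg1 difference of NMU effects against NMUR1+ ran from -3.59 to 2.12. Igha between ILC2 and NMUR1+ cells of a mouse correlated at -0.15 to 0.45, and between ILC2 and NMUR1- at -0.74 to 0.01. The cause was not tested. Depth limits Ighg1, Ighg2b, Iglc1, Tnfrsf17 and Derl3 in the ILC2 libraries where they had 0 counts, which allow up to 0.338 CPM.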
